A study of Mus musculus with 24 samples.

Results

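Both corticosteroid receptors and genes that answer to them were followed in the brains of hypertensive and control mice: the glucocorticoid receptor Nr3c1, the mineralocorticoid receptor Nr3c2, the enzyme gene Hsd11b1, and 6 genes known to be induced by glucocorticoid, Fkbp5, Sgk1, Tsc22d3, Zbtb16, Cdkn1a and Plin4. The 9 genes were taken by name from a table of 54532 genes, and all 9 were found once each. All 9 were among the 27286 genes tested, which were those above 0 in at least 6 of 24 mice, and they had 50 to 3114 reads per mouse.

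In mice, corticosterone from the adrenal gland enters the brain, where it binds the mineralocorticoid receptor at low levels and the glucocorticoid receptor as levels rise during stress and over the day. Hsd11b1 encodes the enzyme that turns inactive 11-dehydrocorticosterone back into corticosterone inside cells. The hormone-bound receptors move to the nucleus and act on target genes, many of which astrocytes, oligodendrocytes and blood vessel cells express. Angiotensin II, the peptide infused here, is also known as a stimulus of aldosterone secretion from the adrenal cortex.

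The study asked how human amnion epithelial cells (AECs), which line the fetal side of the placenta, act in mice made hypertensive with angiotensin II. Brain RNA was sequenced in male wild-type C57Bl6 mice, stated to be 8 to 12 weeks old, in 4 groups of 6. The vehicle group received 0.9% saline by osmotic minipump for 2 weeks, and the angiotensin II group received 0.7 mg/kg/d of the peptide in the same way. The vehicle + AEC and angiotensin II + AEC groups also received AECs into the tail vein after pump surgery. By the paper's methods this injection held either saline or AECs, so mice without AECs were injected with saline. Each library came from brain hemisphere tissue, in which all cell types are mixed.

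Recovered totals were 16536449 to 25308700 reads per mouse. The libraries fell into 2 sets: 18 had a total FPKM (fragments per kilobase of gene and per unit of library size) of 277116 to 298301, and 6 had a total of 338334 to 348597. The set of 6 held vehicle replicates 5 and 6, angiotensin II replicate 5, vehicle + AEC replicate 6 and angiotensin II + AEC replicates 5 and 6, so that each group had 1 or 2 of them. Values of 27.5% of the genes tested did not overlap between the sets, and no label names them as a batch. The tissue label fitted the markers of brain cells: the summed FPKM of 6 neuronal genes was 733 to 851 and that of 6 astrocyte genes was 235 to 303 in every mouse. One library, angiotensin II replicate 4, held pituitary transcripts, with Gh (growth hormone) at 1115 FPKM against at most 26.2 in the other 23.

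Windows before RefSeq start sites were at hand for 7 of the 9 genes. Among these 7, Sgk1 was the one whose windows held the full palindrome that glucocorticoid receptor dimers are known to bind. Its sequence is shown for that reason. Sgk1 encodes a kinase that promotes sodium transport, and its gene lies on chr10:21882184-21999903 of GRCm38, plus strand. These genes had 15 windows in all (none for Nr3c1 and Zbtb16), and each window was read over the 250 bases before its start, in build GRCm38.p6. The motif searched was AGAACA, any 3 bases, then TGTTCT, which reads the same on both strands. It was present in 3 of 32851 windows of all genes (0.00913%), and 1 of the 3 was the window below, which precedes an internal start of Sgk1 inside an intron of the longer transcripts. Capitals mark the motif, which runs from base 189 to base 175 before the start.
Sgk1, chr10:21993640-21993889, plus strand: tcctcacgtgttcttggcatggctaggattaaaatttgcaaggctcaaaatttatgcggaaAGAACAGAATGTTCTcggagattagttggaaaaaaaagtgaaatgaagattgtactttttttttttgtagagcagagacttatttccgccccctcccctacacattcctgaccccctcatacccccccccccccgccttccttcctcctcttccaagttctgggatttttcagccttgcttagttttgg
A single arm of the palindrome, AGAACA or TGTTCT on either strand, was in 3 of the 6 Sgk1 windows (the printed one included, where both arms of the palindrome count) and in 1 of the 3 Tsc22d3 windows. It was in none of the windows of Fkbp5, Cdkn1a, Plin4, Nr3c2 and Hsd11b1, and in 16.1% of all windows. These matches describe letters in short windows only, and no binding was measured.

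The level of each gene, in FPKM, can be compared between genes because FPKM is per length. Tsc22d3, which encodes the glucocorticoid-induced leucine zipper GILZ, was the highest on average over 24 mice, at 17.1 FPKM (13.3 to 23.3), followed by Sgk1 at 11.8 FPKM (6.03 to 34.9). Nr3c1 followed at 8.28 FPKM (5.25 to 10.8), and then Cdkn1a, the gene of the cell cycle inhibitor p21, at 7.21 FPKM (4.89 to 10.9). Hsd11b1 had 6.10 FPKM (4.21 to 8.95) and Nr3c2 had 4.86 FPKM (3.40 to 5.96). Below them came Zbtb16, a zinc finger transcription factor, at 4.52 FPKM (2.29 to 7.72), and Fkbp5, a co-chaperone that lowers the receptor's affinity for hormone, at 3.90 FPKM (2.60 to 5.94). Plin4, a lipid droplet coat gene, was lowest at 1.5 FPKM (0.407 to 5.26). The ranges of neighbours in this order overlapped throughout.

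The genes differed in how much they varied between mice. Within the 18 libraries, the coefficient of variation was 7.09% for Nr3c2 and 8.61% for Nr3c1, so the receptors were the steadiest. It was 10.1% for Tsc22d3, 10.7% for Hsd11b1, 14.0% for Fkbp5, and 17.5% for both Zbtb16 and Cdkn1a. Sgk1 (48.0%) and Plin4 (56.9%) varied the most, with an 8.38-fold span from the lowest to the highest mouse for Plin4 and a 3.98-fold span for Sgk1.

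**Figure D1:**
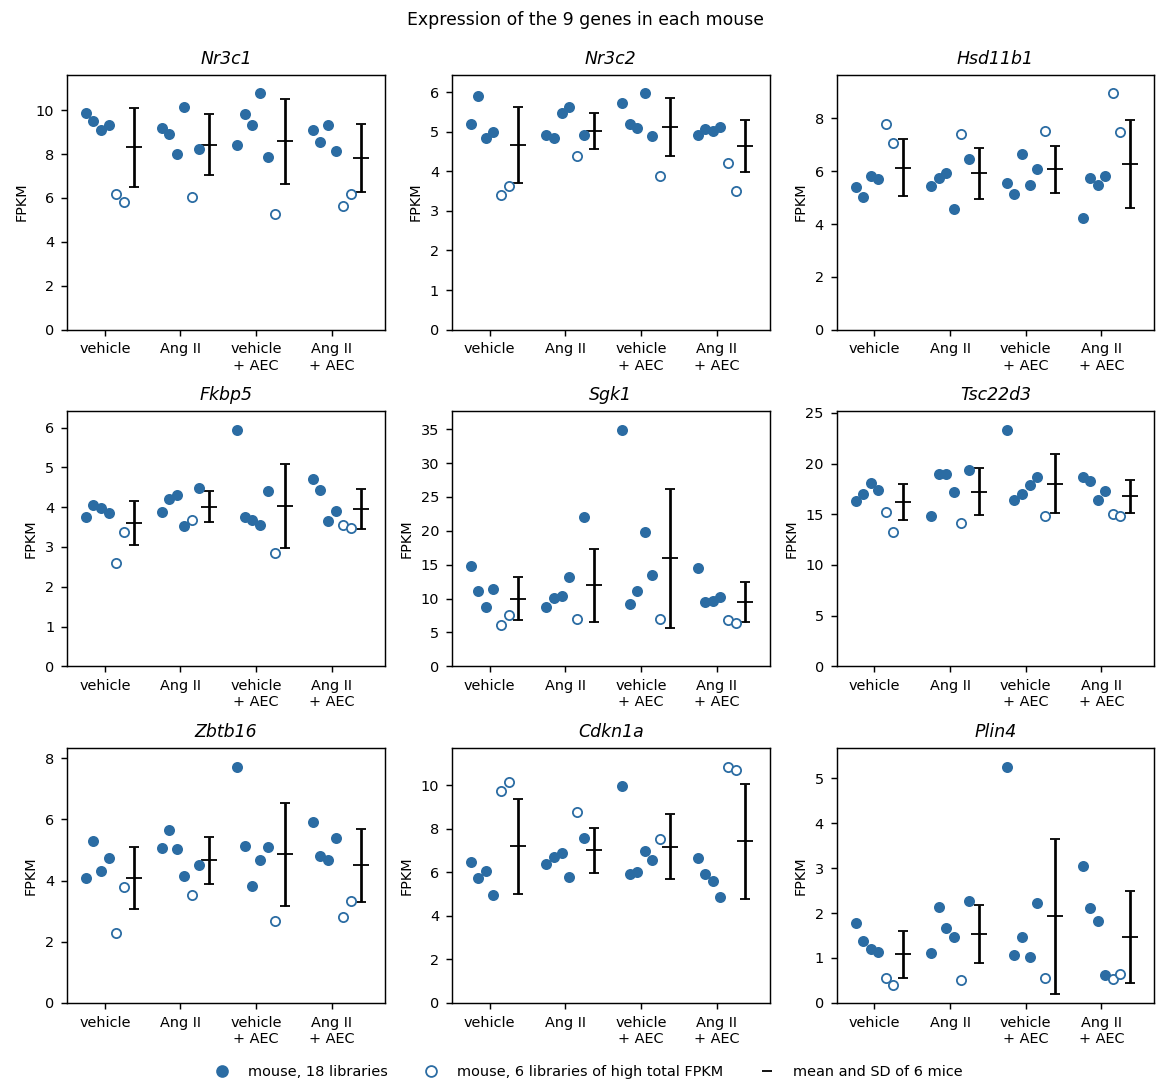
FPKM (vertical axis of each panel) of the 9 genes in each of 24 mice, by group (horizontal axis), with replicates 1 to 6 from left to right. Filled points are the 18 libraries, open points the 6 of high total FPKM, and bars give the mean and SD of 6 mice. One filled point of vehicle + AEC, replicate 1, is the highest mouse for Fkbp5, Sgk1, Tsc22d3, Zbtb16 and Plin4.

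Did angiotensin II alone change these genes? None of the 9 differed between angiotensin II and vehicle at an unadjusted p under 0.05 (limma, all 24 mice in 1 fit), where 2.21% of all genes tested did, and the adjusted p was 0.99 or more for each. Limma voom on the recovered reads also called 0 of the 9. No gene's groups were separate, and the 2-sided exact permutation p was 0.171 to 0.974, where 6 against 6 mice allow a smallest p of 0.00216. In a mixture of brain cells, a lower or higher value cannot tell fewer or more cells of a type from less or more RNA per cell.

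The receptors had nearly equal levels. Nr3c1 had a median of 9.21 FPKM (5.81 to 9.88) with vehicle and 8.57 FPKM (6.05 to 10.1) with angiotensin II, with the low end of both groups held by the libraries of high total FPKM. Its log2 fold change was 0.03, with a 95% confidence interval of -0.33 to 0.39 (unadjusted p = 0.849), and -0.09 in the 18 libraries alone. Nr3c2 had a median of 4.91 FPKM (3.40 to 5.89) with vehicle and 4.92 FPKM (4.38 to 5.63) with angiotensin II, and its log2 fold change was 0.13 (-0.13 to 0.39, unadjusted p = 0.323), or -0.02 in the 18 libraries. The direction for both receptors therefore depended on which libraries were used. Hsd11b1 had medians of 5.76 FPKM (5.04 to 7.80) and 5.84 FPKM (4.57 to 7.39), with a log2 fold change of -0.05 (-0.36 to 0.26, unadjusted p = 0.749), which was 0.03 in the 18 libraries. Without angiotensin II replicate 4, the library with pituitary transcripts, Nr3c1 was at -0.02 and Hsd11b1 at 0.02.

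The fitted difference with angiotensin II was above 0 for 5 of the 6 target genes under every scaling tried and near 0 for Cdkn1a, which fell below 0 when FPKM was rescaled by median ratio, and none passed the test. Sgk1 had a median of 9.95 FPKM (6.03 to 14.9) with vehicle and 10.3 FPKM (7.03 to 22.1) with angiotensin II. A single mouse, replicate 6, set the upper end of the angiotensin II group, and the next was at 13.2 FPKM. The log2 fold change of Sgk1 was 0.22 (-0.45 to 0.88, unadjusted p = 0.502), and 0.02 without that mouse. Plin4 had a median of 1.17 FPKM (0.407 to 1.79) with vehicle and 1.57 FPKM (0.518 to 2.28) with angiotensin II, and the groups overlapped over most of their range. Its log2 fold change of 0.48 came with the widest interval (-0.52 to 1.49, unadjusted p = 0.327). Fkbp5 had medians of 3.80 FPKM (2.60 to 4.05) and 4.05 FPKM (3.52 to 4.49), and a log2 fold change of 0.16 (-0.12 to 0.44, unadjusted p = 0.243), the lowest p of the 9. The log2 fold change was 0.21 for Zbtb16 (-0.24 to 0.67), 0.08 for Tsc22d3 (-0.13 to 0.30) and 0.00 for Cdkn1a (-0.41 to 0.42), and the groups overlapped for all 3. In the 18 libraries alone the differences of Fkbp5, Zbtb16 and Tsc22d3 were 0.06, 0.08 and 0.05, that of Cdkn1a was 0.20, that of Sgk1 was 0.10 and that of Plin4 was 0.29. Every interval included 0.

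The other comparisons asked what AECs did with and without angiotensin II. Adding AECs to angiotensin II left 0 of the 9 genes past an unadjusted p of 0.05 against angiotensin II alone, with a background of 2.54% of genes tested. For vehicle + AEC against vehicle it was 0 of 9 (background 2.41%), for angiotensin II + AEC against vehicle + AEC 0 of 9 (background 2.66%), and for the interaction of angiotensin II and AECs 0 of 9 (background 2.54%). The adjusted p from limma was 0.931 or more for every gene in all 5 comparisons, 0 genes in the whole table had an adjusted p under 0.05, and limma voom called 0 of the 9 throughout. Among the 13649 genes with a mean of at least 1 FPKM, which include all 9, the share past an unadjusted p of 0.05 was lower, between 0.681% and 0.996%.

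Sgk1 had the lowest p of the 9 in 3 of these 4 comparisons. With vehicle + AEC its median was 12.3 FPKM (7.04 to 34.9), and with angiotensin II + AEC it was 9.52 FPKM (6.35 to 14.5). Within vehicle + AEC, replicate 1 at 34.9 FPKM lay above every mouse of the remaining groups, and the other 5 mice lay among their values. The log2 fold change of vehicle + AEC over vehicle was 0.52 (-0.14 to 1.19, unadjusted p = 0.117, exact p = 0.212). Angiotensin II + AEC against vehicle + AEC gave -0.59 (-1.25 to 0.08, unadjusted p = 0.0819, exact p = 0.152), and angiotensin II + AEC against angiotensin II gave -0.28 (-0.95 to 0.38). The interaction was -0.80 (-1.75 to 0.14, unadjusted p = 0.0902). Without vehicle + AEC replicate 1 these values became 0.26, -0.32 and, for the interaction, -0.54 (unadjusted p = 0.190). Without vehicle + AEC replicate 6, the lowest mouse of its group, they became 0.71, -0.78 and -0.996, and these 3 passed an unadjusted p of 0.05 (0.0342, 0.0226 and 0.0328), in fits where 4.35%, 4.57% and 4.56% of all genes did. Leaving out vehicle + AEC replicate 2 or angiotensin II + AEC replicate 1 also brought the comparison of angiotensin II + AEC with vehicle + AEC past it, at an unadjusted limma p of 0.0492 and 0.0421, where 2.51% and 3.1% of all genes passed.

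Plin4 had a median of 1.26 FPKM (0.550 to 5.26) with vehicle + AEC and 1.23 FPKM (0.540 to 3.05) with angiotensin II + AEC, and again the groups overlapped. Its log2 fold change was 0.58 (-0.42 to 1.58) for vehicle + AEC over vehicle and -0.31 (-1.31 to 0.70) for angiotensin II + AEC against vehicle + AEC. Without vehicle + AEC replicate 1 these became 0.23 and 0.04, so the sign of the latter rested on that mouse. Against angiotensin II alone, angiotensin II + AEC gave -0.21 (-1.21 to 0.79), and the interaction was -0.79 (-2.21 to 0.63), or -0.44 without that mouse. With the library set as a term as well, vehicle + AEC over vehicle was 0.05 and the interaction -0.03 without it.

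For the remaining genes the AEC differences were small beside the spread between mice. The medians with vehicle + AEC and with angiotensin II + AEC were 8.88 and 8.35 FPKM for Nr3c1, 5.15 and 4.97 FPKM for Nr3c2, and 5.82 and 5.78 FPKM for Hsd11b1. Among the targets they were 3.71 and 3.78 FPKM for Fkbp5, 17.4 and 16.9 FPKM for Tsc22d3, 4.88 and 4.74 FPKM for Zbtb16, and 6.79 and 6.30 FPKM for Cdkn1a. Nr3c2 had an interaction of -0.27 (-0.64 to 0.10, unadjusted p = 0.148). Cdkn1a had an interaction of 0.00 (-0.58 to 0.59) over all mice, and in the 18 libraries alone it was -0.47 with an unadjusted p of 0.0214, where 4.2% of all genes passed. With the set as a term over all mice it was -0.20 (unadjusted limma p of 0.278), and -0.09 when vehicle + AEC replicate 1, the highest of the 18 libraries for Cdkn1a, was also left out. The cause of these changes was not tested.

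**Figure D2:**
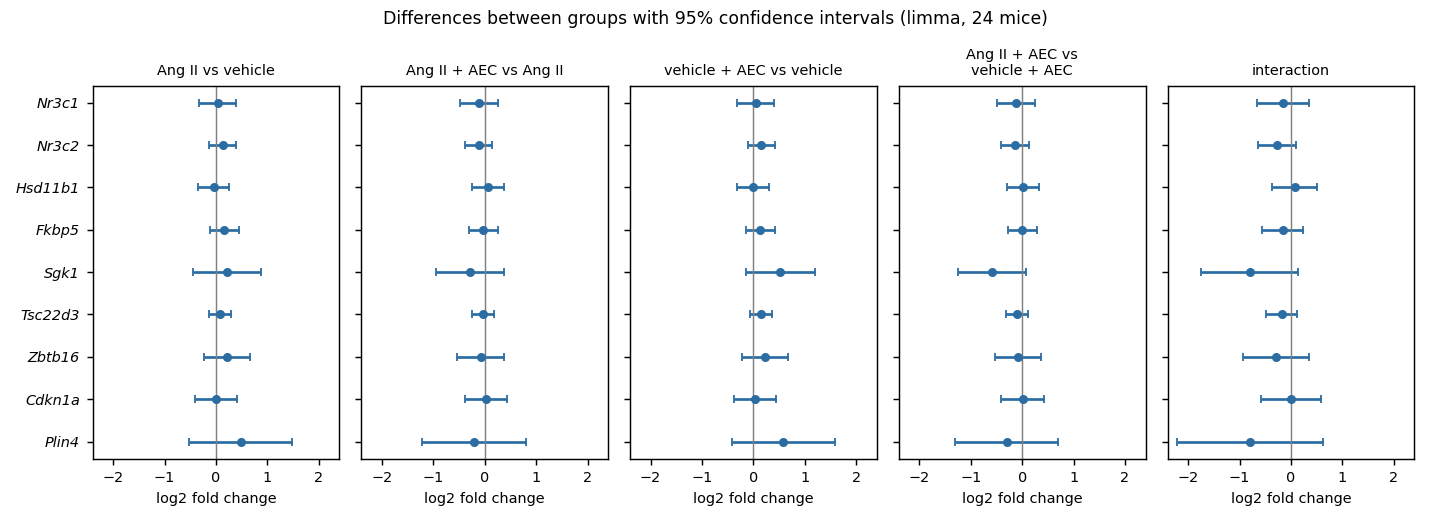
Log2 fold change (horizontal axis) of each gene (vertical axis) in the 5 comparisons, as limma estimates from 24 mice on log2(FPKM + 0.1). Points are estimates and bars 95% confidence intervals, and every interval includes 0, from -2.21 at the lowest for Plin4 in the interaction to 1.58 at the highest for Plin4 in vehicle + AEC against vehicle.

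The 9 genes also differed between the library sets. Nr3c1 had a median of 9.15 FPKM in the 18 libraries (7.88 to 10.8) and 5.93 FPKM in the 6 of high total FPKM (5.25 to 6.19), with no overlap. Sgk1 (11.1 against 6.91 FPKM), Zbtb16 (4.92 against 3.08 FPKM) and Nr3c2 (5.09 against 3.75 FPKM) were likewise lower in the set of 6 without overlap, as were 16.3% of all genes. Hsd11b1 went the other way, at 5.62 FPKM (4.21 to 6.66) in the 18 and 7.52 FPKM (7.08 to 8.95) in the 6, where 11.2% of all genes were higher without overlap. In total 5 of the 9 genes did not overlap between the sets, where 27.5% of all genes did not. Plin4 (1.57 against 0.542 FPKM), Fkbp5 (3.95 against 3.43 FPKM) and Tsc22d3 (17.6 against 14.8 FPKM) had lower medians in the set of 6 with some overlap, and Cdkn1a had a higher one (6.23 against 9.95 FPKM). In the same 6 libraries the mitochondrial share of reads was 6.17 to 6.85%, against 4.79 to 5.75% in the 18, the summed markers of endothelium were 115 to 137 FPKM against 74.8 to 98.9 FPKM, and those of oligodendrocytes had a median of 1546 FPKM against 1181 FPKM. The part of these shifts in the levels of the 9 genes was not tested.

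The target genes did not vary independently between mice. Because the library sets form clusters, relations are given within the 18 libraries, with group means subtracted, and the set of 6, with 1 or 2 mice per group, was too small for values of its own. All 15 pairs of the 6 targets had a positive Pearson's r, from 0.40 to 0.84 with a median of 0.70, and 12 of the 15 had an adjusted p under 0.05 (permutation test with 100000 resamples, Benjamini-Hochberg over the 36 pairs of the 9 genes). Fkbp5 and Tsc22d3 had the highest r, at 0.84 (permutation p = 3e-05, adjusted 0.00054), with a Spearman's rho of 0.83 (permutation p = 3e-05, adjusted 0.00108), and r was 0.75 without the 2 mice farthest from the median of Fkbp5. Cdkn1a and Plin4 followed with r = 0.82 (permutation p = 2e-05, adjusted 0.00054), rho = 0.80 (permutation p = 0.00011, adjusted 0.00198) and r = 0.68 without the 2 farthest mice. Fkbp5 rose and fell with Cdkn1a (r = 0.80), Plin4 (r = 0.79) and Zbtb16 (r = 0.77) as well. Over all 24 mice, where the library sets add their own differences, 10 of the 15 pairs were positive with an adjusted p under 0.05, and the 5 pairs with Cdkn1a had negative values.

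Within the 18 libraries, one mouse carried much of this. Without vehicle + AEC replicate 1, the median r of the 15 pairs fell from 0.70 to 0.44, 14 of the 15 stayed positive, and 2 had an adjusted p under 0.05. These 2 were Fkbp5 with Tsc22d3 (r = 0.67, adjusted permutation p = 0.0304) and Cdkn1a with Plin4 (r = 0.68, adjusted permutation p = 0.0304). The relation of Sgk1 with Fkbp5 went from r = 0.59 to r = 0.19, and that of Sgk1 with Zbtb16 from 0.40 to -0.14, so these rested largely on that mouse. The other relations of Sgk1 were weaker without it but stayed positive. They went from 0.75 to 0.53 with Cdkn1a, from 0.67 to 0.40 with Tsc22d3 and from 0.61 to 0.34 with Plin4.

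Within the 18 libraries, the glucocorticoid receptor gene was lower in mice with more Fkbp5, relative to their group. Nr3c1 and Fkbp5 had r = -0.65 (permutation p = 0.00364, adjusted 0.0131) and rho = -0.71 (permutation p = 0.00154, adjusted 0.0139), and r was -0.64 without the 2 mice farthest from the median of Nr3c1. This value did not need the mouse above: without it r was -0.69 (adjusted permutation p = 0.0304). Angiotensin II replicate 4, the library with pituitary transcripts, had Nr3c1 at rank 2 of the 18 libraries, Fkbp5 at rank 18 and Hsd11b1 at rank 17. The part of that library in the relations of Nr3c1 was not tested. With all 24 mice and the library set subtracted, r was -0.44 with an adjusted permutation p of 0.0859. Over all 24 mice without that subtraction the sign was the opposite, with a positive r (adjusted permutation p of 0.0260, or 0.255 for rho). Both genes had lower medians in the set of 6. In the 18 libraries Nr3c1 and Tsc22d3 had r = -0.53 (adjusted permutation p = 0.0514) and rho = -0.68 (permutation p = 0.00262, adjusted 0.0153). Without vehicle + AEC replicate 1 their r was -0.48 (adjusted permutation p = 0.190). Nr3c1 and Hsd11b1 also had a negative relation, with r = -0.57 (permutation p = 0.0132, adjusted 0.0347), rho = -0.61 (permutation p = 0.00801, adjusted 0.0320) and r = -0.62 without the 2 farthest mice. Without vehicle + AEC replicate 1 the adjusted p of this pair was 0.0577. Nr3c2 had no relation with an adjusted p under 0.05 to any other of the 9 genes in the 18 libraries.

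**Figure D3:**
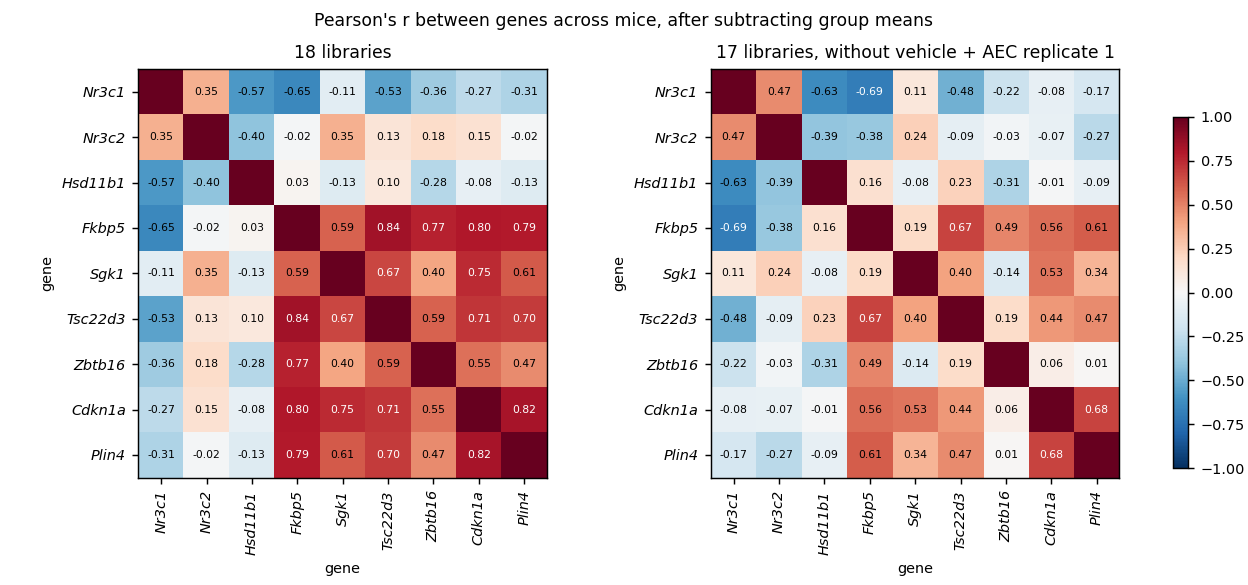
Pearson's r between the 9 genes (both axes) across mice after subtraction of group means, in the 18 libraries (left) and without vehicle + AEC replicate 1 (right), with red for positive and blue for negative values. The block of 6 targets at the lower right is positive throughout on the left (0.40 to 0.84) and weaker on the right (-0.14 to 0.68), and Nr3c1 with Fkbp5 is -0.65 and -0.69.

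The mouse vehicle + AEC replicate 1 is described here because it was the highest for the targets, and its values are given without a test. It was the highest of 24 mice for Sgk1 (34.9 FPKM, 3.15 times the median of the other 17 of the 18 libraries), Plin4 (5.26 FPKM, 3.56 times) and Zbtb16 (7.72 FPKM, 1.61 times). It was also the highest of 24 for Fkbp5 (5.94 FPKM, 1.52 times) and Tsc22d3 (23.3 FPKM, 1.34 times), where 4.9% of all genes tested had their highest value in this mouse. Cdkn1a, at 9.97 FPKM, was the highest of the 18 libraries and 1.64 times the median of the other 17. All 6 targets were thus at their highest in this mouse among the 18 libraries, where 6.44% of all genes tested were. The receptors were not: Nr3c1 was 0.92 times the median of the other 17 (rank 14 of 18) and Nr3c2 was 1.13 times (rank 3), and Hsd11b1 was 0.97 times (rank 10).

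The same mouse was high for many other genes known to be induced by glucocorticoid. Of 28 such genes that are not among the 9, 15 were at their highest of the 18 libraries in this mouse, 27 were above the median of the other 17, and their median was 1.27 times that median. For the 13649 genes with a mean of at least 1 FPKM, 5.81% were highest in this mouse and the median was 1.0 times. Some of the 28, such as Hif3a (mean 0.807 FPKM), lie below that mean, and 6.44% of all 27286 genes tested were highest in this mouse. The list of 28 was chosen with earlier results of these data known. Chosen after their values were seen, the 3 largest were Hif3a, a hypoxia-inducible factor subunit (2.74 FPKM, 3.08 times), Arrdc2, an arrestin domain protein (10.3 FPKM, 2.20 times) and Map3k6, a stress-activated kinase (2.10 FPKM, 2.09 times). Nfkbia, which encodes the inhibitor of NF-κB, reached 20.0 FPKM (1.75 times), and Ddit4, an inhibitor of mTORC1, reached 41.4 FPKM (1.68 times). Mt1, a metallothionein gene and the most abundant of the list, was at 281 FPKM (1.11 times), and Cdo1, at 0.95 times, was the 1 gene below the median.

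Genes of the machinery around the receptors were not high in this mouse. Of 10 chaperones and co-chaperones 0 were at their highest of the 18 libraries. All 10 were below the median of the other 17 (0 above it), with a median of 0.93 times. Chosen after their values were seen, Ptges3 (0.85 times) and Fkbp4 (0.90 times) were at their lowest of the 18 libraries. Of 8 coregulators 0 were at their highest, and 5 were above the median of the other 17. The count of genes at their highest was 1 of 8 for steroid metabolism (Abcb1a, the drug and steroid efflux pump of the blood-brain barrier). It was 0 of 9 for the hypothalamic and pituitary stress axis. Among marker sums, endothelium was at 79.2 FPKM (rank 17 of 18), meninges at 13.5 FPKM (rank 17) and pericytes and smooth muscle at 31.9 FPKM (rank 16). Pituitary was at 1.07 FPKM (rank 17) and erythroid genes at 106 FPKM (rank 4). The part of these markers in the levels of the targets was not tested.

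**Figure D4:**
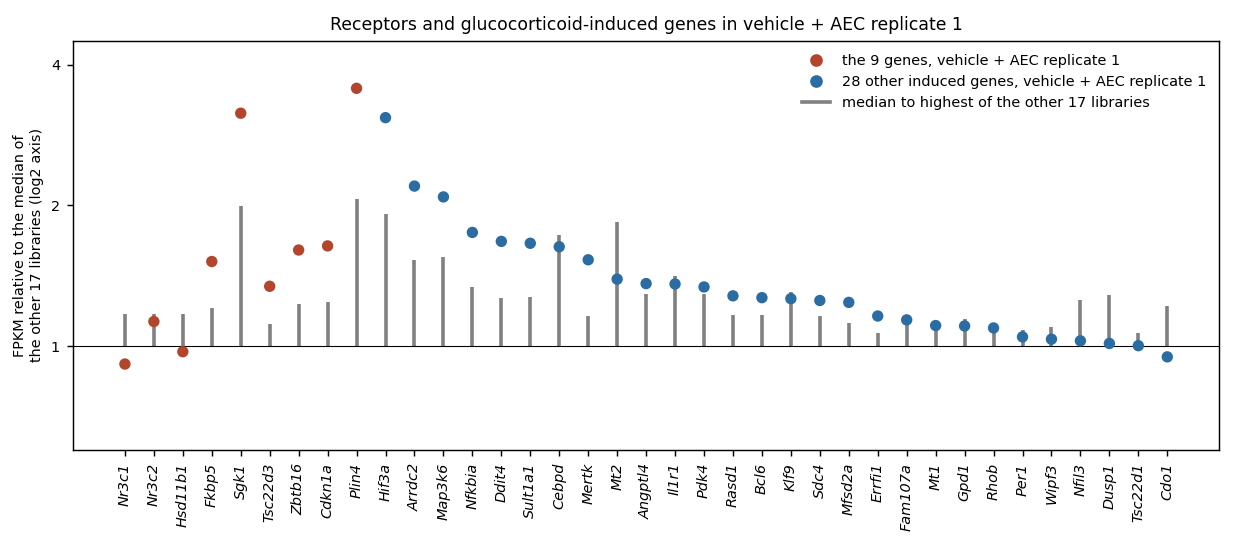
FPKM of vehicle + AEC replicate 1 relative to the median of the other 17 of the 18 libraries (vertical axis, log2 scale) for the 9 genes (red points) and 28 other glucocorticoid-induced genes (blue points). Grey lines run from that median to the highest of the other 17, and the 6 targets lie above their lines, while Nr3c1, Nr3c2 and Hsd11b1 do not.

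The pathway around the 9 genes showed little difference between groups. Of the 28 other glucocorticoid-induced genes, 0 passed an unadjusted p of 0.05 with angiotensin II against vehicle and 2 did with vehicle + AEC against vehicle, both higher, against a background of 1.12% of genes. Arrdc2 had 6.11 ± 2.16 FPKM with vehicle + AEC and 4.54 ± 0.493 FPKM with vehicle (SD, n = 6 each), a log2 fold change of 0.37 (SE 0.15, unadjusted p = 0.0229, exact p = 0.0476). Nfkbia had 13.5 ± 3.47 FPKM and 10.9 ± 1.11 FPKM, a log2 fold change of 0.27 (SE 0.13, unadjusted p = 0.0474, exact p = 0.0801). With limma neither passed adjustment (adjusted p = 0.995). Both were among the genes that were highest in vehicle + AEC replicate 1, and without this mouse 0 of the 28 passed, with log2 fold changes of 0.21 for Arrdc2 and 0.15 for Nfkbia (unadjusted limma p of 0.0845 and 0.181). None of the 28 passed in the other 3 comparisons over all mice. With the library set as a term 2 were higher with angiotensin II against vehicle (Pdk4 at 0.23 and Il1r1 at 0.30), 4 were higher with vehicle + AEC against vehicle (Arrdc2, Ddit4, Nfkbia and Pdk4), and 1 was lower each with angiotensin II + AEC against angiotensin II (Mt1) and in the interaction (Pdk4). In the 18 libraries alone 3 were higher with vehicle + AEC against vehicle (Per1, Nfkbia and Pdk4), 2 were lower with angiotensin II + AEC against vehicle + AEC (Errfi1 and Bcl6), and 2 were lower in the interaction (Nfkbia and Pdk4). Of all genes, 3.41% to 4.01% passed in the 5 comparisons with the term and 3.86% to 4.61% in the 18 libraries. These names and settings were chosen after the values were seen, and each gene had a limma adjusted p of 0.999 or more. Over all mice, the median log2 fold change of the 28 was 0.05 with angiotensin II against vehicle, beside 0.02 for all genes, and 0.15 with vehicle + AEC against vehicle, beside 0.01 for all genes.

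In the hypothalamic and pituitary stress axis, 9 of 10 listed genes were tested (all but the corticotropin receptor Mc2r). Crh, the corticotropin-releasing hormone gene, had 6.34 ± 0.842 FPKM with angiotensin II + AEC and 5.18 ± 0.714 FPKM with vehicle + AEC (SD, n = 6 each), a log2 fold change of 0.29 (SE 0.12, unadjusted p = 0.0204, exact p = 0.0303). It was the 1 gene of the list past an unadjusted p of 0.05 in any comparison over all mice (background 1.53% of genes higher), and its adjusted p with limma was 1. Without vehicle + AEC replicate 1 it was at 0.28, with an unadjusted limma p of 0.0355. In the 18 libraries alone it did not pass (0.17, unadjusted limma p of 0.137), and Crhbp, which encodes a binding protein for Crh, was lower with vehicle + AEC against vehicle (-0.22, unadjusted limma p of 0.0174). Avp (vasopressin) and Crhr1 (a receptor for Crh) were the most abundant of this list, at 32.2 and 18.3 FPKM.

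None of the 10 chaperones and co-chaperones, 8 coregulators, 8 tested genes of steroid metabolism and 8 epithelial mineralocorticoid targets passed in any of the 5 comparisons over all mice. Star, which carries cholesterol into mitochondria for steroid synthesis, was lower with angiotensin II against vehicle once the library set was a term (-0.26, unadjusted limma p of 0.00253) and in the 18 libraries (-0.29, unadjusted limma p of 0.00783), where 3.46% and 3.86% of all genes passed. With the term it was also higher with angiotensin II + AEC against angiotensin II (0.16), and the coregulator Nrip1 passed in the interaction in the 18 libraries (0.31). Adjusted p-values from limma were 0.999 or more. Among the most abundant of them were Hsp90ab1 (561 FPKM) and Hspa8 (429 FPKM), the chaperones that hold the receptors ready for hormone, the corepressor gene Ncor1 (11.4 FPKM), Abcb1a (4.59 FPKM) and Cyp7b1 (4.39 FPKM), and the sodium pump subunit Atp1b1 (338 FPKM) and Ndrg2 (290 FPKM). Cyp11b1, Cyp11b2 and Cyp21a1, the adrenal enzymes that make corticosterone and aldosterone, did not pass the filter on low values.

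Some genes outside the lists followed the targets closely from mouse to mouse. Likeness was the r, over 24 mice with group means subtracted, of a gene with the mean standardised level of the 6 targets, among genes with a mean of at least 1 FPKM, and it is a description in which the library sets take part. The 10 genes most alike were Gm19439 (r = 0.90), Glul, the glutamine synthetase of astrocytes (0.87), Klf13 (0.85), Gjb6, the gene of connexin 30 (0.85), Adipor2, an adiponectin receptor (0.83), Phyhd1 (0.83), Rin2 (0.83), Sfswap (0.82), the phagocytic receptor Mertk (0.82) and Pla2g3 (0.82). Within the 18 libraries the values for Gm19439, Adipor2 and Klf13 were 0.92, 0.91 and 0.90, the highest of the 10. Those for Glul, Rin2, Sfswap and Pla2g3 were lower, at 0.76, 0.72, 0.72 and 0.68, and the others lay between. Without vehicle + AEC replicate 1 the 10 ran from 0.46 (Pla2g3) to 0.81 (Gjb6). Mertk is also 1 of the 28 induced genes above.

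At the other end stood Gjb2 (r = -0.91), Nkx2-2 (-0.84) and Vwa1 (-0.83). Gjb2 encodes connexin 26, which like connexin 30 forms gap junctions. Within the 18 libraries Gjb2 had r = -0.94, and -0.84 without vehicle + AEC replicate 1. In that mouse Gjb2 was at 2.28 FPKM, below the 3.44 to 5.54 FPKM of the other 17, while Gjb6 was at 33.5 FPKM, above their 22.4 to 29.7 FPKM. The 2 connexin genes lay on opposite sides of all other libraries of the set in the mouse with the highest targets. Both were picked by their r with the targets in these same mice, so such values follow largely from that choice. The summed markers of meninges were also low in that mouse, at 13.5 FPKM (rank 17 of 18). In the 6 libraries of high total FPKM that sum was 20.0 to 24.5 FPKM, against 12.9 to 16.6 FPKM in the 18. Gjb2 was at 4.88 to 7.33 FPKM in those 6. The part of meninges in the level of Gjb2 was not tested.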

How the data were processed

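Brain RNA of 24 male mice, 6 in each of 4 groups named by the sample labels, was analysed. FPKM per gene and mouse, as deposited by the authors, came in 1 table that also lists gene length, name and coordinates. The submitters' processing notes name GRCm38 (mm10) and DESeq 1.10.1; the aligner, counting program and use of strand are not given in the sources used here. All columns were mapped to samples (0 left unmapped). FPKM multiplied by gene length came out as whole multiples of 1 read for 100% of values. The tolerance was 0.02 and widened in proportion to the reads at high counts, where the check says little. The recovered reads came to 16536449 to 25308700 per mouse. Counting error is therefore small for the genes other than Plin4. It is larger for Plin4, which had as few as 50 reads in a mouse. Within groups, pairs of libraries differed by a chi-square per gene of 3.04 or more, so no pair looked like 1 library listed again. Of the table's identifiers, 98.1% have the same coordinates in GENCODE M21. Plin4 overlaps Hdgfl2 on the opposite strand by 17 exonic bases, Cdkn1a overlaps AC167363.2 by 273 and Nr3c2 overlaps Gm10649 by 247, so their values are uncertain to that extent.

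Genes above 0 in at least 6 of 24 mice (27286) were tested with limma 3.58.1 in R 4.3.3 on log2(FPKM + 0.1), all 4 groups in 1 fit, trended eBayes and Benjamini-Hochberg adjustment. Fold changes are on that scale, which understates changes of low genes. Single genes were also tested with a 2-sided exact permutation test. Relations between genes used 100000 resamples, which allow a smallest p of 1e-05, in scipy 1.17.1 with Python 3.11.15. Intervals and p-values measure the spread between these mice. The scripts were tested on simulated data. Named are the 9 genes in every comparison, from each pathway list the genes with an unadjusted p under 0.05 or else the 2 of highest mean FPKM, the 10 genes of highest and the 3 of lowest likeness, and genes said to be chosen after their values were seen. The members, the lists, the tests and most alternatives were chosen with earlier results of these data known. The replicate numbers come from the sample titles. Alternatives were other pseudocounts (1 and 0.01), other filters (none, or a mean FPKM of at least 1), fewer groups per fit, a replicate block, rescaling by median ratio, array weights, limma voom on recovered reads, the library set as a term or the 18 libraries alone, and leaving out each mouse. Leaving 1 mouse out of the pathway lists was chosen after seeing the data. A few pathway genes that this rule would name are counted but not reported here by name.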

Additional observations from a re-analysis of the deposited data

Results flagged for a closer look

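In the check of each group of 6 for a value far from the others, which chance meets in about 1 of 20 groups, 1 of 36 groups stood out. It was Plin4 in vehicle + AEC, where replicate 1 was at 5.26 FPKM and the next mouse at 2.21 FPKM, a gap of 0.646 of the group's range against a critical value of 0.625.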

How the results depend on the processing

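The count of the 9 genes past an unadjusted p of 0.05 stayed at 0 for angiotensin II against vehicle and for angiotensin II + AEC against angiotensin II under every alternative run. It became 1 for the interaction in the 18 libraries alone (Cdkn1a, -0.47). It was 0 to 1 when each mouse was left out in turn for the other 3 comparisons, and the 1 gene was Sgk1 each time. Whether replicate numbers pair the mice stayed undecided. Of 36 same-numbered pairs, 28 had r over 0.1 (-0.22 to 0.80), and 10 correlated best with their own number. The 6 libraries of high total FPKM all carried number 5 or 6, so replicate number and library set are mixed in these values. With the replicate number as a block the interaction count was 1 (Nr3c2, -0.27, unadjusted limma p of 0.0315, where 5.19% of all genes passed), and the other 4 counts stayed at 0.

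Values near 0 changed sign. For angiotensin II against vehicle, Cdkn1a was -0.00012 with a pseudocount of 1, -0.018 after rescaling, and -0.092 to 0.11 without each mouse. Hsd11b1 was 0.015 with array weights, 0.031 with the library set as a term, 0.030 in the 18 libraries and -0.11 to 0.023 without each mouse. Nr3c1 was -0.060, -0.071 and -0.091 in the same 3 settings and -0.062 to 0.12 without each mouse, and Nr3c2 was -0.020 in the 18 libraries. The Cdkn1a interaction was -0.36 with array weights, -0.20 with the set as a term, -0.091 with that term and without vehicle + AEC replicate 1, and -0.12 to 0.11 without each mouse. Plin4 with angiotensin II + AEC was 0.028 against angiotensin II with the set as a term. Against vehicle + AEC it was 0.22 with that term and without vehicle + AEC replicate 1, and -0.56 to 0.044 without each mouse. The causes were not tested.

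Of the 15 target pairs, 10 were positive with an adjusted p under 0.05. This was again 10 over the 23 mice without vehicle + AEC replicate 1, 12 in the 18 libraries and 11 with the set as a term. With both changes together, chosen after seeing the data, it was 2 in the 17 libraries and 0 with the set as a term over 23 mice. Of the 10 genes most like the targets, 6 were again among the 10 with the set as a term or in the 18 libraries, 3 without the 2 mice farthest from the median, 3 in the 17, 2 with the set as a term and without that mouse, and 4 to 10 without each mouse.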

Other observations

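The library of angiotensin II replicate 4, with Gh at 1115 FPKM, also held Pomc at 343 FPKM and Prl at 102 FPKM, against at most 5.96 and 1.93 FPKM in the other 23. In this library Nr3c1 was at 10.1 FPKM (rank 2 of the 18 libraries), Fkbp5 at 3.52 FPKM (rank 18), Hsd11b1 at 4.57 FPKM (rank 17) and Zbtb16 at 4.15 FPKM (rank 16), while Sgk1 was at 13.2 FPKM (rank 7).

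Across the lists, the median r with the mean level of the targets within the 18 libraries was 0.60 for the 25 other glucocorticoid-induced genes with a mean of at least 1 FPKM, and 0.48 without vehicle + AEC replicate 1. It was -0.36 for the 10 chaperones and co-chaperones, and -0.0035 without that mouse.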
